A study of Mus musculus with 30 samples.

Results

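The P2ry12 locus and the purinergic genes of microglia were followed through 4 comparisons in which mice lost interleukin-34 (IL-34). The set holds 10 of the 51752 genes of the count table and was chosen by gene symbol: P2ry12, P2ry13, P2ry14, P2ry6, P2rx7, P2rx4, Entpd1, Gpr34, Adora3 and Med12l. Of these, 9 had at least 1 count, and Adora3 was listed at 0 in all 30 libraries. In the genotype experiment 3 mice carrying an Il34 knockout (KO) were compared with 4 heterozygous mice (Het), so the control arm there keeps 1 intact copy of the gene. In the antibody experiment 4 wild-type mice given a blocking antibody against IL-34 (anti-IL34) were compared with 4 given the control antibody anti-gp120. From every mouse 1 hemisphere was sequenced as whole forebrain, and the other served to isolate microglia with CD11b magnetic beads. Males numbered 2 of 4 in Het, 1 of 3 in KO, 2 of 4 with anti-gp120 and 3 of 4 with anti-IL34. Age, strain, antibody dose and timing are not given in the sources used here.

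Microglia, the resident macrophages of the brain, sense nucleotides that other cells release. The P2Y receptors of the set are G-protein-coupled receptors for ADP, UDP or UDP-sugars, and P2X receptors are ion channels opened by ATP. Surface enzymes such as the one encoded by Entpd1 remove phosphates from ATP and ADP and so shape what the receptors meet. P2ry12, the ADP receptor that draws microglial processes toward injury, is widely used as a marker of homeostatic microglia. IL-34 is a ligand of CSF1R, the receptor on which microglia depend.

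Total counts per library lay between 15.1 and 75.2 M (mega-counts) for forebrain and between 15.8 and 50.5 M for microglia. Il34 itself stood at 19.3 to 23.6 counts per M counts (CPM) in Het forebrain and at 6.81 to 8.79 CPM in KO forebrain, without overlap. In microglia its levels overlapped between Het (5.20 to 10.6 CPM) and KO (5.34 to 7.29 CPM). The antibody arms overlapped in Il34 RNA in forebrain and in microglia. The 6 microglial markers used were Csf1r, Cx3cr1, Tmem119, Aif1, Ctss and C1qa. Their mean log2 CPM moved by -1.34 (KO forebrain), -1.57 (KO microglia), -1.22 (anti-IL34 forebrain) and -0.91 (anti-IL34 microglia) from the matching control. Whether the isolates held a smaller share of microglia or each cell held less of an RNA cannot be told apart in bulk libraries, and neither can fewer cells and less RNA per cell in forebrain.

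P2ry12, P2ry13 and P2ry14 lie side by side on the minus strand of mouse chromosome 3, all inside the span of Med12l, which is read from the plus strand. In GRCm38 Med12l, a gene of the Mediator kinase module, spans chr3:59005825-59318682. Within it lie P2ry14 (chr3:59113855-59153618), P2ry13 (chr3:59207892-59210882) and P2ry12 (chr3:59216272-59262871). The promoters of the 4 genes are shown because neighbours at this locus moved apart in the data. Each is 300 bases, from 250 before to 50 after an annotated RefSeq start in GRCm38.p6, written 5′ to 3′ on the gene's own strand. Capitals mark matches to 1 of 6 motifs searched on both strands. For P2ry14, which has several RefSeq starts, the first of the listed promoters is given.
P2ry12 (chr3:59262936-59263235, minus strand): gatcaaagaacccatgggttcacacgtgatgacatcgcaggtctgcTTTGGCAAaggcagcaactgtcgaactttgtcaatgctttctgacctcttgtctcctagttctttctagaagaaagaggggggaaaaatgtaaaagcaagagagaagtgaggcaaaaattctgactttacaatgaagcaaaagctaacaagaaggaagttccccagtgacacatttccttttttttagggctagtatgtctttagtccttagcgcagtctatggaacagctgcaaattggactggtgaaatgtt
P2ry13 (chr3:59210833-59211132, minus strand): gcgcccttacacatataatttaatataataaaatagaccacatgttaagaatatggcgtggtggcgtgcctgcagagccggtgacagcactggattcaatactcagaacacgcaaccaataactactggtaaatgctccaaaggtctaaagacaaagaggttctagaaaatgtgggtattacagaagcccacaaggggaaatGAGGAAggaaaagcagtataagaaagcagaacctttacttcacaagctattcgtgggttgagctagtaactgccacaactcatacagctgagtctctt
P2ry14 (chr3:59153443-59153742, minus strand): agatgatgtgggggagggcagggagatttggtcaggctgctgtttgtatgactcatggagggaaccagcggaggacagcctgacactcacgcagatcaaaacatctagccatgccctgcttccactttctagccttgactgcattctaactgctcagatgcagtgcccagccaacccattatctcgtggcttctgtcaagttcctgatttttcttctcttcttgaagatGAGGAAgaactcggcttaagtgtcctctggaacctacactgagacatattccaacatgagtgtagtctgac
Med12l (chr3:59006728-59007027, plus strand): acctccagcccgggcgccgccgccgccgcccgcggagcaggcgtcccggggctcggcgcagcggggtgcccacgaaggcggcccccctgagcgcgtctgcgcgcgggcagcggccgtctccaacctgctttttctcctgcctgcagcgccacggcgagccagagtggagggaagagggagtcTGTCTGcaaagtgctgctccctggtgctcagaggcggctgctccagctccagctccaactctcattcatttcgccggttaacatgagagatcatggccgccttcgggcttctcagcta

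The P2ry12 window holds 1 match to TTGCNNAA, a short form of the CEBP motif that 10.8% of the 32851 promoters in the RefSeq table also hold. P2ry14 shares this motif: the promoter of another of its starts, chr3:59130713-59131012, holds 2 matches. The P2ry13 and P2ry14 windows each hold GAGGAA, the core of the site of PU.1, the factor that macrophages need to form, and 28.3% of all promoters hold it. The Med12l window holds CAGACA, a SMAD half-site present in 21.0% of all promoters. Over the 8 members with a RefSeq promoter (13 promoters), the longer GAGGAAGT, which contains GAGGAA, was found for Adora3 and P2rx7 and in 3.20% of all promoters. No member promoter held CTAAAAATA (MEF2, 0.517% of all promoters) or GAAANNGAA (IRF, 8.56%). P2ry6 and Gpr34 had no entry in the table.

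**Figure D1:**
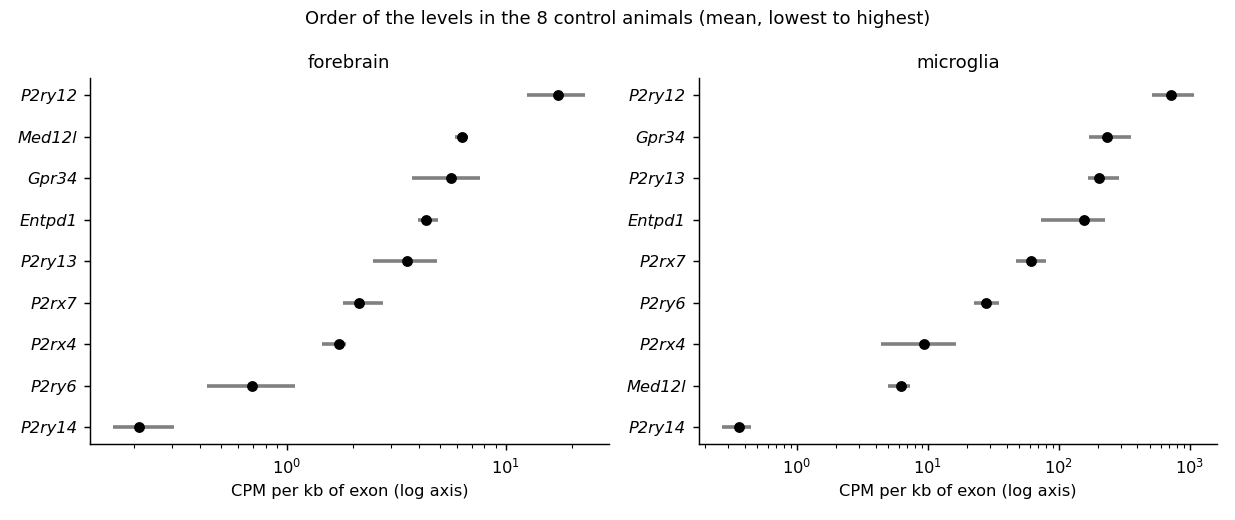
Mean level of 9 genes in the 8 control animals (Het and anti-gp120 together), as CPM per kb of annotated exon on log axes, with lines from the lowest to the highest animal, in forebrain and in isolated microglia. P2ry12 leads in both tissues, and Med12l goes from the second place in forebrain to the eighth in microglia. The places of Med12l depend on the pooling of the arms. Gpr34 exceeded it in anti-gp120 forebrain (7.36 against 6.59 CPM per kb), and it exceeded P2rx4 in Het microglia (7.01 against 6.76).

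The isolates carried far more RNA of the receptors and of Entpd1 than whole forebrain did. In the 8 control animals 8 of the 9 members with counts were higher in microglia (edgeR quasi-likelihood test, Benjamini-Hochberg adjusted p under 0.05), against a background of 40.5% of all genes tested. P2ry12 had 31.7, 43.3 and 58.7 CPM in forebrain (lowest, median and highest of 8) and 1315, 1720 and 2743 CPM in microglia, a log2 fold change (log2FC) of 5.42 (SE 0.184, edgeR adjusted p 1.86e-13). P2ry13 gave 5.89, Gpr34 5.44, P2ry6 5.38, Entpd1 5.16 and P2rx7 4.86 on the log2 scale, all in the direction of the isolates. P2rx4 gave less, 2.37, and P2ry14 least, 0.79. These fits had no term for the animal, although each mouse gave both libraries. With the animal as a replicate block 8 members passed as well. Med12l was level between the tissues, at 80.5 ± 3.76 CPM in forebrain and 79.6 ± 9.66 CPM in microglia (SD, n = 8 each; log2FC -0.02, 95% interval -0.17 to 0.12).

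Levels of different genes were compared as CPM per kb of exon. In control microglia P2ry12 was highest at 722 CPM per kb (516 to 1077 over animals) and stood clear of every other member. Gpr34, a receptor for lysophosphatidylserine, followed at 235 (171 to 357), P2ry13, another ADP receptor, at 205 (169 to 290) and Entpd1, the enzyme CD39, at 156 (72.8 to 227) CPM per kb. Those 3 overlapped one another. P2rx7, the ATP-gated channel of inflammasome activation, had 61.5 (47.4 to 80.2), which overlapped Entpd1, and P2ry6, the UDP receptor linked to phagocytosis, 28.0 CPM per kb (22.7 to 34.9), below P2rx7 in all animals. P2rx4, an ATP-gated channel of activated microglia, had 9.41 (4.38 to 16.4) and overlapped Med12l at 6.24 (4.98 to 7.38). P2ry14, the receptor of UDP-sugars, had 0.361 CPM per kb (0.270 to 0.448). In control forebrain P2ry12 led at 17.3 CPM per kb (12.5 to 23.1), ahead of every other member in all animals. Med12l (5.89 to 6.74), Gpr34 (3.75 to 7.64), Entpd1 (3.99 to 4.91) and P2ry13 (2.48 to 4.84 CPM per kb) came next, each overlapping its neighbour in that order. Reads appear to have been counted over whole gene spans with introns, and per kb of span P2ry13 came first and P2ry12 ranked 3 in both tissues.

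**Figure D2:**
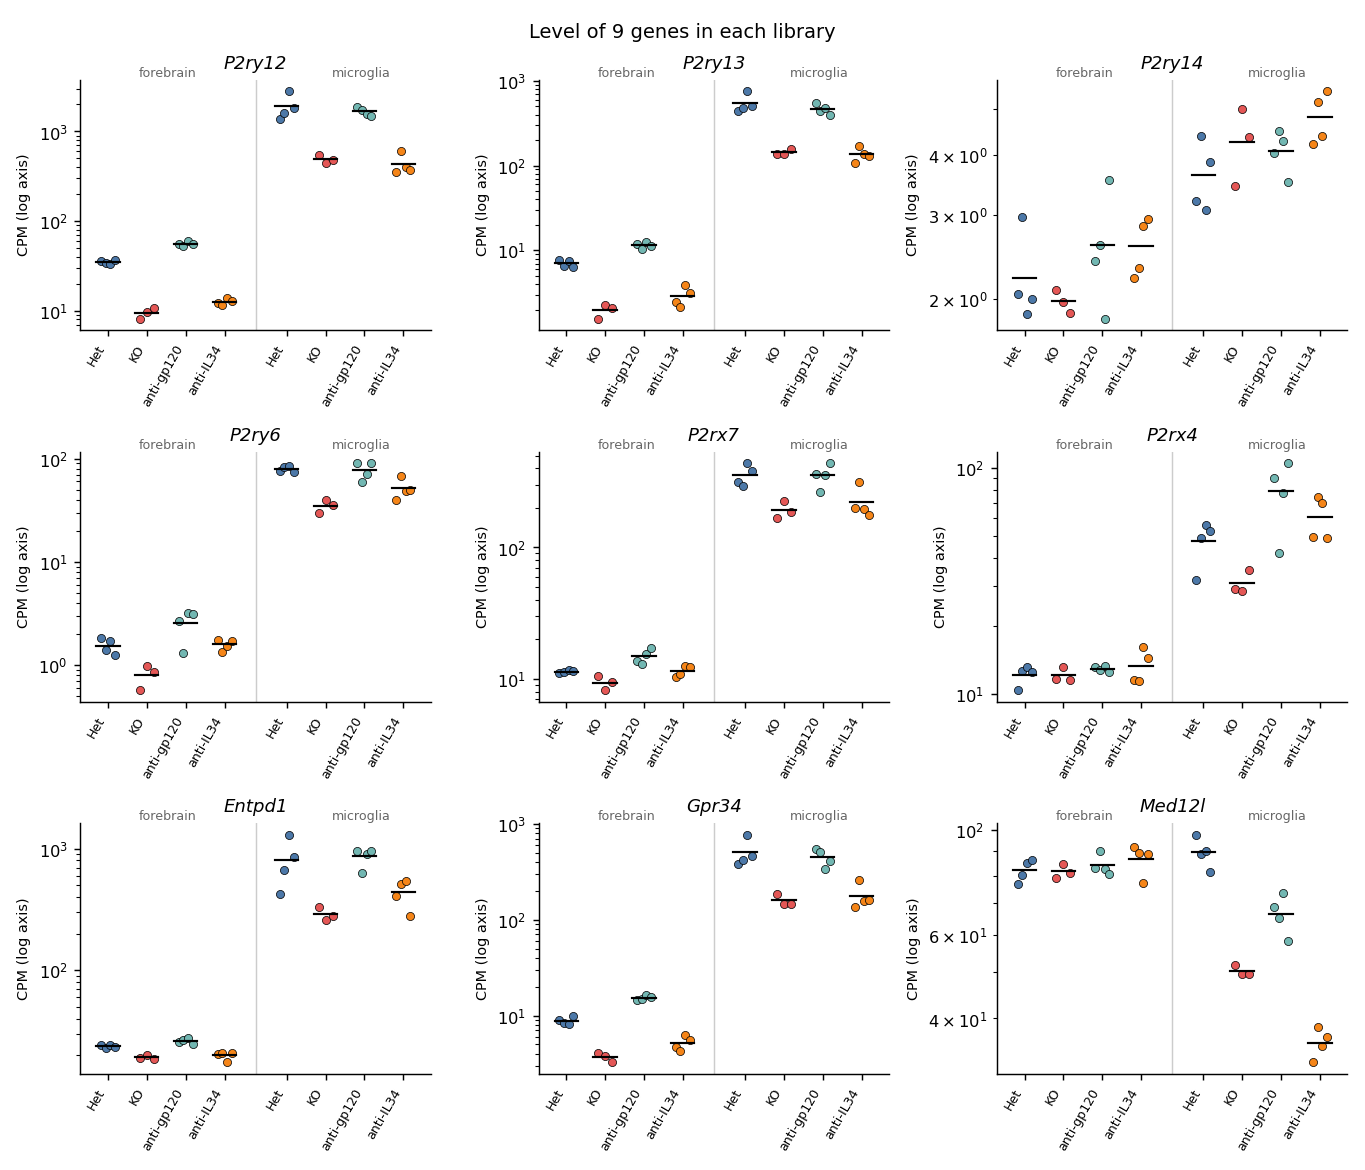
Level of 9 genes in CPM (log axes, scaled within each tissue and experiment), with 1 point per library and a line at the mean of each arm; forebrain arms stand left of the grey line and microglia arms right of it. P2ry12, P2ry13 and Gpr34 are lower in every library without IL-34 than in any control of the same tissue and experiment, whereas Med12l separates the arms in microglia only.

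The ADP receptors P2ry12 and P2ry13 fell in all 4 comparisons, P2ry12 by 3.60- to 4.53-fold and P2ry13 by 3.37- to 4.22-fold. In Het forebrain P2ry12 had 36.3, 33.9, 33.1 and 36.6 CPM, and in KO forebrain 8.17, 9.77 and 10.7 CPM. The arms were far apart, and the KO level was 27.8% of Het (log2FC -1.85, SE 0.083, 95% interval -2.03 to -1.67, edgeR adjusted p 2.74e-07). With anti-gp120 forebrain gave 55.5, 53.1, 59.9 and 55.8 CPM of P2ry12, and with anti-IL34 12.1, 11.7, 13.8 and 12.97 CPM. This was the largest change of any member, to 22.1% of control (log2FC -2.18, SE 0.072, edgeR adjusted p 6.46e-08). These forebrain calls held with any 1 of the 7 or 8 animals removed.

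In isolated microglia P2ry12 had 1362, 1620, 2820 and 1809 CPM in Het and 551, 450 and 478 CPM in KO. The Het animals spread widely, with an SD of 638 CPM around a mean of 1903, yet no KO library reached the lowest of them (log2FC -1.92, SE 0.324, edgeR adjusted p 0.0252). With anti-gp120 the isolates gave 1896, 1741, 1583 and 1488 CPM, and with anti-IL34 353, 600, 397 and 370 CPM. The arms again did not overlap (log2FC -1.93, SE 0.199, edgeR adjusted p 0.0188).

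P2ry13 followed closely at a lower level. It had 7.67, 6.52, 7.45 and 6.42 CPM in Het forebrain and 1.57, 2.25 and 2.11 CPM in KO forebrain (log2FC -1.75, SE 0.120, edgeR adjusted p 9.29e-06). In forebrain of the antibody experiment it had 11.96, 10.2, 12.5 and 11.4 CPM against 2.49, 2.16, 3.87 and 3.17 CPM (log2FC -2.08, SE 0.148, edgeR adjusted p 0.000102). In microglia it stood at 542 ± 143 CPM in Het (SD, n = 4) and had fallen in KO to 144 ± 10.3 CPM (SD, n = 3), a log2FC of -1.88 (SE 0.238, edgeR adjusted p 0.0144). With the antibody 467 ± 62.6 CPM became 136 ± 25.7 CPM (SD, n = 4 each), which is a log2FC of -1.78 (SE 0.179, edgeR adjusted p 0.0175). Over all 30 libraries P2ry13 was the gene whose pattern lay closest to that of P2ry12 among 14286 genes, with a root mean square difference of 0.17 in log2 level. Next came Tmem119 (0.30), Fcrl2 (0.32), Ltc4s (0.35) and Crybb1 (0.36), and Gpr34 ranked 7. Each level was centred on the control arm of its tissue and experiment, so the measure follows changes without IL-34 and scatter between animals. The libraries share animals, so the ranking is a description only.

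P2ry14, the third P2Y gene of the locus, did not follow its neighbours. It was scarce, with 43 to 182 counts per forebrain library of the anti-gp120 arm and 52 to 149 per Het microglia library. Its levels were 2.22 ± 0.503 CPM in Het forebrain (SD, n = 4) and 1.98 ± 0.109 CPM in KO forebrain (SD, n = 3), and in microglia 3.63 ± 0.609 and 4.27 ± 0.783 CPM. The antibody arms gave 2.59 ± 0.715 and 2.58 ± 0.367 CPM in forebrain and 4.08 ± 0.425 and 4.81 ± 0.594 CPM in microglia (SD, n = 4 each). The arms overlapped in all 4 comparisons, and none passed the threshold. The 95% intervals of the log2 fold change ran from -0.60 to 0.18 (KO forebrain), -0.30 to 0.77 (KO microglia), -0.37 to 0.55 (anti-IL34 forebrain) and -0.15 to 0.63 (anti-IL34 microglia), all above the intervals of P2ry12 and P2ry13.

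P2ry6 lies elsewhere, at chr7:100937630-100974649 on the minus strand. In Het microglia it had 74.9, 82.5, 84.8 and 73.4 CPM and in KO microglia 30.02, 39.4 and 35.8 CPM. No library of one arm reached the other, and P2ry6 fell by 1.15 in log2 (SE 0.130, edgeR adjusted p 0.0136). In microglia of the antibody experiment the arms overlapped, at 59.5 to 90.7 CPM with anti-gp120 and 40.0 to 67.9 CPM with anti-IL34 (log2FC -0.56, edgeR adjusted p 0.155). Forebrain held little of it, 1.55 ± 0.258 CPM in Het (SD, n = 4) and 0.803 ± 0.212 CPM in KO (SD, n = 3), and the log2 fold changes of -0.84 (KO) and -0.78 (anti-IL34) did not pass (edgeR adjusted p 0.136 and 0.405).

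Gpr34 lies on chrX:13632089-13640858, on the plus strand and inside the span of Cask on the other strand. It fell in every comparison, as the ADP receptors did, though each time by less on the log2 scale. In forebrain it had 8.99, 8.35, 8.17 and 9.84 CPM in Het and 4.04, 3.76 and 3.26 CPM in KO, without overlap (log2FC -1.29, SE 0.114, edgeR adjusted p 6.95e-05). The antibody lowered 15.4 ± 0.706 CPM to 5.23 ± 0.920 (SD, n = 4 per arm; log2FC -1.60, SE 0.123, edgeR adjusted p 0.000166). In microglia Het had 506 ± 178 CPM (SD, n = 4), and Gpr34 fell in KO to 159 ± 23.8 CPM (SD, n = 3; log2FC -1.63, SE 0.300, edgeR adjusted p 0.0310). With anti-gp120 it was 450 ± 94.0 and with anti-IL34 177 ± 55.6 CPM (SD, n = 4 per arm). That is a log2FC of -1.29 whose edgeR adjusted p of 0.0499 lies just inside the threshold.

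The ATP-gated channels passed once, P2rx7 in KO microglia. P2rx7 (chr5:122643911-122691432) had 317, 292, 440 and 380 CPM in Het microglia and 169, 226 and 186 CPM in KO microglia. The arms did not overlap, and it fell by 0.85 in log2 (SE 0.184) with an edgeR adjusted p of 0.0488. The antibody arms overlapped in microglia, at 264 to 439 and 176 to 316 CPM (log2FC -0.63, edgeR adjusted p 0.143). In forebrain P2rx7 gave log2 fold changes of -0.31 in KO (edgeR adjusted p 0.240) and -0.37 with anti-IL34 (edgeR adjusted p 0.447), and in neither case did the arms overlap. P2rx4, its neighbour at chr5:122707544-122729738, passed in no comparison. Its forebrain log2 fold changes were -0.01 (95% interval -0.21 to 0.20) in KO and 0.00 (-0.25 to 0.25) with anti-IL34. In microglia it gave -0.64 in KO and -0.36 with anti-IL34 on the log2 scale (edgeR adjusted p 0.110 and 0.408), with overlapping arms in both.

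Entpd1 (chr19:40612366-40741602, plus strand) had 24.4, 23.1, 24.4 and 23.4 CPM in Het forebrain and 19.0, 20.3 and 18.8 CPM in KO forebrain. The arms were close together but separate, and the fall of 0.29 on the log2 scale passed (SE 0.053, edgeR adjusted p 0.0276). With any 1 of the 7 animals removed it did not pass, with values of -0.30 to -0.28 and edgeR adjusted p up to 0.240 (without KO animal 3). In KO microglia the change was larger but so was the spread: Het gave 421, 666, 1303 and 861 CPM and KO 334, 257 and 277 CPM (log2FC -1.49, SE 0.404, edgeR adjusted p 0.0839). With the antibody Entpd1 gave -0.39 in forebrain (edgeR adjusted p 0.0932) and -0.99 in microglia (edgeR adjusted p 0.0909) on the log2 scale, and the arms did not overlap in either tissue.

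**Figure D3:**
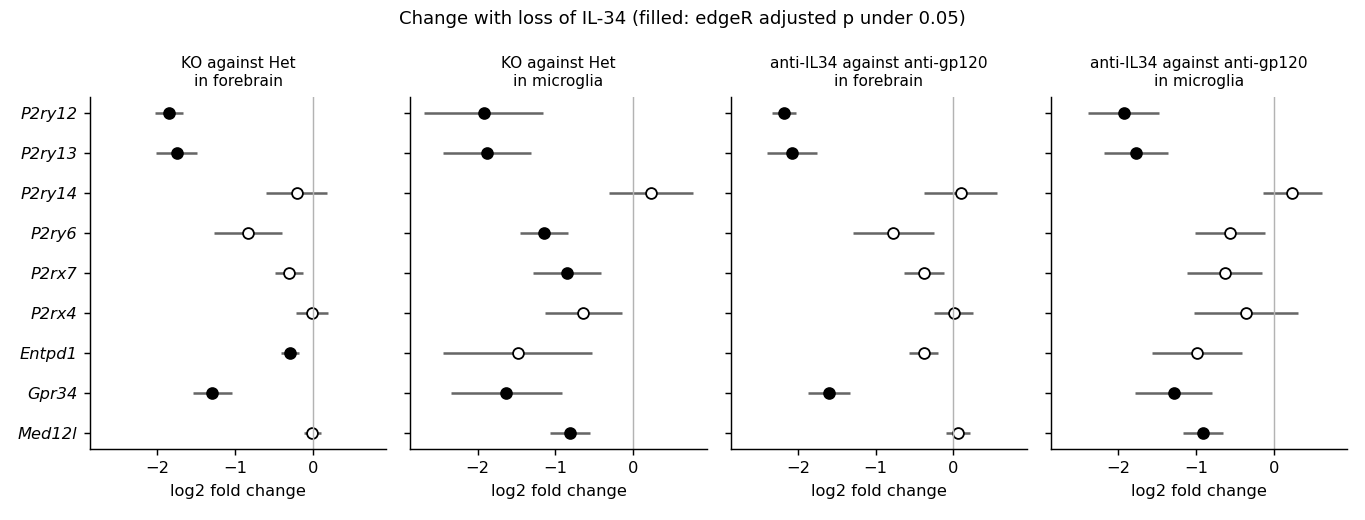
Fitted log2FC of 9 genes (points) with 95% intervals (lines) in the 4 comparisons; filled points passed the threshold of 0.05 on the edgeR adjusted p. P2ry12 and P2ry13 lie near -2 in every panel, and P2ry14 lies near 0.

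Counted together, 4 of the 9 members were lower in KO forebrain (P2ry12, P2ry13, Entpd1 and Gpr34), where 0.615% of all genes tested were called lower. In KO microglia 6 of 9 were lower (P2ry12, P2ry13, P2ry6, P2rx7, Gpr34 and Med12l), against 5.22%. With anti-IL34 3 of 9 were lower in forebrain (P2ry12, P2ry13 and Gpr34), against 0.525%, and 4 of 9 in microglia (the same 3 and Med12l), against 0.603%. No member was higher in any of them. The members were chosen with earlier results of these data known, so these counts are a description and no test of the set. Arms did not overlap for 6 members in KO forebrain (5.14% of all genes tested were lower without overlap), 7 in KO microglia (19.7%), 5 in anti-IL34 forebrain (2.26%) and 5 in anti-IL34 microglia (10.7%).

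The microglia calls depended on single animals, while the fold changes moved less. In KO microglia 0 members passed once Het 20, Het 23, KO 3, KO 6 or KO 24 was left out, which makes 5 of 7 refits, while P2ry12 kept log2 fold changes of -2.03 to -1.70, P2ry13 of -1.96 to -1.71 and Gpr34 of -1.79 to -1.40 over all 7. The loss was that of the whole table, since 0 of all genes passed by edgeR in those 5 refits, with 2268 to 4465 at an unadjusted p under 0.05. In microglia of the antibody experiment 0 members passed in 6 of 8 fits (without anti-gp120 1, 7 or 8 and without anti-IL34 2, 10 or 24), while over all 8 P2ry12 kept -2.22 to -1.78, P2ry13 -2.04 to -1.65, Gpr34 -1.55 to -1.01 and Med12l -1.04 to -0.85. Of all genes 0 to 6 passed in those 6 fits. Without anti-gp120 animal 15 the count there was 8 members, and 6905 of 17071 genes passed, against 110 with all animals. Without Het 1, 8 members passed in KO microglia, and 5756 of 18294 genes did.

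Other cell types moved in the isolates too. The summed level of 5 astrocyte markers was 2537 to 9305 CPM in Het isolates and 10261 to 13066 CPM in KO isolates, without overlap. It was 3340 to 13794 CPM with anti-gp120 and 7529 to 14078 CPM with anti-IL34, which overlapped. The 5 excitatory neuron markers gave 577 to 2262 (Het), 1918 to 3401 (KO), 916 to 3239 (anti-gp120) and 2599 to 4046 CPM (anti-IL34). The 4 inhibitory neuron markers gave 21.4 to 68.6 (Het), 72.5 to 146 (KO), 24.0 to 60.1 (anti-gp120) and 47.9 to 92.6 CPM (anti-IL34), so that the genotype arms did not overlap. Neutrophil and monocyte markers (6 genes) gave 37.6 to 50.2 (Het), 31.4 to 88.4 (KO), 37.0 to 240.0 (anti-gp120) and 120.2 to 382 CPM (anti-IL34). The 4 oligodendrocyte lineage markers gave 1823 to 6014 (Het), 5038 to 10213 (KO), 2313 to 5549 (anti-gp120) and 3708 to 7761 CPM (anti-IL34). None of the genes of these 5 lists passed the threshold in microglia. In forebrain the oligodendrocyte lineage moved with the members in the genotype experiment, at 2429 to 2816 CPM in Het and 1930 to 2116 CPM in KO. There the myelin genes Mbp and Mog fell by 0.37 and 0.41 in log2 (edgeR adjusted p 0.00614 and 0.00514), and Pdgfra and Cspg4 did not pass. With anti-IL34 none of the 4 passed in forebrain, at 2002 to 2477 against 1665 to 2507 CPM. Platelets also carry P2ry12. Their 4 markers were scarce in the isolates, and their sums did not overlap, at 4.70 to 6.78 (Het) against 2.49 to 3.402 CPM (KO) and 4.36 to 5.98 (anti-gp120) against 2.19 to 3.13 CPM (anti-IL34). Of 3 tested, Gp9 alone passed, with log2 fold changes of -1.88 and -2.70 (edgeR adjusted p 0.0289 and 0.0374), while Itga2b gave -0.07 and 0.20 and Gp1bb 0.80 and 1.03. Choroid plexus markers (5 genes) ran from 3.38 to 7.85 CPM in anti-gp120 isolates, from 5.53 to 1956 CPM in anti-IL34 isolates and from 1179 to 3895 CPM in the genotype experiment. Border macrophage markers, 6 of 6 detected and none past the threshold, gave 790 to 948 CPM (Het) and 421 to 863 CPM (KO), which overlapped. In the antibody experiment they gave 500 to 928 (anti-gp120) and 351 to 495 CPM (anti-IL34), without overlap. In forebrain they gave 15.6 to 20.6 (Het), 12.3 to 16.1 (KO), 16.9 to 27.4 (anti-gp120) and 7.94 to 17.8 CPM (anti-IL34), with overlapping arms, median log2 fold changes of -0.45 and -0.55 and none past the threshold. The part of these cells in the members' changes was not tested.

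The members were also set against the 6 microglial markers of the same library, as log2 CPM minus the markers' mean log2 CPM. On this scale P2ry12 and P2ry13 stayed lower without IL-34 and the arms did not overlap in any of the 4 comparisons. P2ry12 went from 1.51 ± 0.06 in Het to 0.97 ± 0.21 in KO forebrain, a difference of -0.54, and from 1.24 ± 0.17 to 0.32 ± 0.15 with the antibody, a difference of -0.93. In microglia the differences were -0.33 (KO) and -1.08 (anti-IL34). P2ry13 gave -0.48 and -0.31 in KO and -0.77 and -0.88 with anti-IL34, in forebrain and microglia in turn. Of all genes tested, 0.0517% were lower without overlap on this scale in KO forebrain, 0.077% in KO microglia, 0.0583% in anti-IL34 forebrain and 0.398% in anti-IL34 microglia. Both stayed lower without overlap with Csf1r left out of the markers. The markers themselves differed in how far they fell, with single log2 fold changes of -1.85 to -0.78 in KO forebrain, -1.92 to -1.37 in KO microglia, -1.84 to -0.92 in anti-IL34 forebrain and -1.40 to -0.47 in anti-IL34 microglia. The lowest each time was Tmem119, another homeostatic microglial gene, which in the genotype experiment lay at the values of P2ry12 (-1.85 and -1.92). Tmem119 is itself among the 6 markers, and the lowest of them must lie below their mean. In the genotype experiment a fall as far as that of P2ry12 was not particular to these receptors. With the antibody Tmem119 fell less far than P2ry12, by log2FC -1.84 and -1.40 against -2.18 and -1.93 in forebrain and microglia.

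Gpr34 relative to the markers overlapped between the arms of the genotype experiment, with differences of 0.09 in forebrain and -0.06 in microglia. With anti-IL34 it lay below them in forebrain (-0.34, no overlap) and overlapped in microglia (-0.46). P2rx7, P2rx4, P2ry14 and Entpd1 were higher relative to the markers in forebrain of both experiments without overlap, by 1.05, 1.34, 1.201 and 1.04 in KO and by 0.85, 1.25, 1.24 and 0.83 with anti-IL34. Med12l did the same there, by 1.33 and 1.26. P2ry6 was higher without overlap in anti-IL34 forebrain (0.61) and overlapped in KO forebrain (0.41) and KO microglia (0.39). In KO microglia P2rx7, P2rx4, P2ry14 and Med12l were higher without overlap, by 0.69, 0.98, 1.79 and 0.74. In anti-IL34 microglia P2ry14 (1.14) and P2ry6 (0.31) were higher without overlap, and P2rx7 (0.22), P2rx4 (0.59) and Med12l (0.01) overlapped. Entpd1 overlapped in microglia of both experiments, at differences of 0.19 and -0.11. Being higher on this scale is common: 94.7% (KO) and 92.0% (anti-IL34) of all genes tested were higher without overlap in forebrain, and 90.8% and 61.7% in microglia, since the markers themselves fell.

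**Figure D4:**
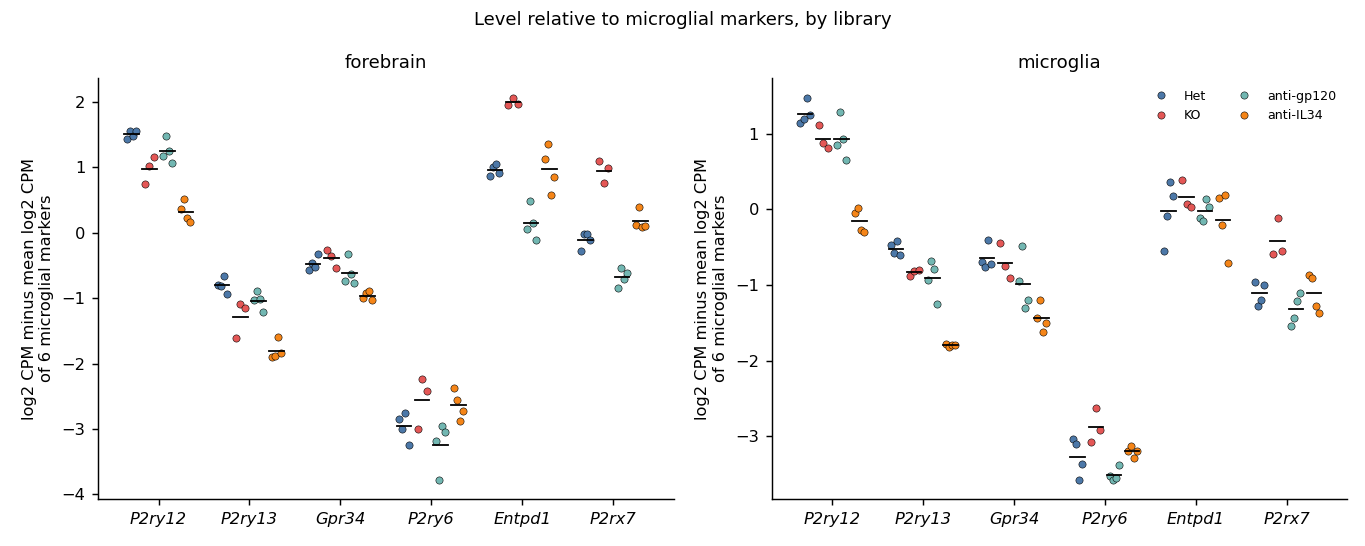
Level of 6 genes relative to the mean of 6 microglial markers, in log2 units, with 1 point per library and a line at the arm mean, in forebrain and in microglia. P2ry12 and P2ry13 are lower without IL-34 in each tissue and experiment, and Entpd1 in microglia overlaps between the arms.

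Med12l passed the threshold in the isolates and not in forebrain. Forebrain had 77.0, 80.4, 84.9 and 86.1 CPM in Het and 79.1, 84.8 and 81.2 CPM in KO, which overlapped (log2FC 0.00, 95% interval -0.11 to 0.10). The antibody arms gave 84.1 ± 4.05 and 86.7 ± 6.41 CPM there (SD, n = 4 each; log2FC 0.06, 95% interval -0.10 to 0.21). In microglia Het gave 97.6, 89.0, 90.0 and 81.5 CPM and KO 51.9, 49.7 and 49.6 CPM, a fall of 0.81 in log2 (SE 0.109, edgeR adjusted p 0.0156). With anti-gp120 microglia gave 68.8, 65.0, 73.5 and 58.3 CPM and with anti-IL34 32.3, 38.4, 34.9 and 36.6 CPM, a log2FC of -0.91 (SE 0.110, edgeR adjusted p 0.0327). Without a term for the animal its fall differed between the tissues, by -0.78 in the genotype experiment (edgeR interaction, SE 0.111, adjusted p 0.00919; 2.43% of all genes tested were called lower) and by -0.98 in the antibody experiment (SE 0.135, adjusted p 0.0219; 0.087%). With the animal as a replicate block, which the shared animals call for, neither passed, and 0 of all genes did by edgeR (5662 and 4232 at an unadjusted p under 0.05). The block left the values at -0.78 and -0.98. With 1 animal left out they passed in 2 of 7 and 3 of 8 fits, at -0.87 to -0.66 and -1.08 to -0.90.

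By edgeR with all animals no other member's change differed between the tissues past the threshold. P2ry12 gave an interaction of -0.03 (95% interval -0.75 to 0.69) in the genotype experiment and 0.24 (-0.21 to 0.68) in the antibody experiment. Entpd1 gave -1.18 (edgeR adjusted p 0.108) and -0.62 (edgeR adjusted p 0.236), both toward a larger fall in microglia. Its difference with the deletion passed by DESeq2, without a low-count filter and in 2 of 7 fits that left out 1 animal (log2 -1.36 to -0.80), and P2rx7 and P2rx4 passed as well without Het 1. With the antibody Entpd1 and P2rx4 passed in 1 of 8 such fits, without anti-gp120 15 (edgeR adjusted p 0.0421 and 0.0349). None of these fits had a term for the animal. With the animal as a replicate block 0 of all genes passed by edgeR in either experiment. The remaining members gave differences, deletion first, of -0.51 and -0.27 (P2rx7), -0.60 and -0.38 (P2rx4), -0.08 and 0.29 (P2ry13), 0.47 and 0.14 (P2ry14), -0.28 and 0.19 (P2ry6) and -0.33 and 0.30 (Gpr34).

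The counts of Med12l can share reads with the genes inside it. Of its 12763 exonic bases, 2688 (21.1%) lie inside the span of P2ry12. In the 15 forebrain libraries Med12l had more counts than all genes inside its span together, 112% to 669% of them. In all 15 microglia libraries it had fewer, 2.51% to 8.36%. Were P2ry12 reads given to both strands' genes, Med12l could not have fewer counts than the genes inside it, so reads were kept apart by strand, at least in large part. Protein-coding genes show the same: 71 of 697 (10.2%) whose whole span is shared with the other strand alone were listed at 0 in all libraries, against 433 of 466 (92.9%) whose whole span is shared on the same strand and 1793 of 11641 (15.4%) with no overlap.

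A small share of reads on the wrong strand remains possible. In the 21 pairs of an abundant microglial gene inside a gene of the other strand, the host's counts went as low as 0.0722% of the inner gene's (Gm35188 around Arhgap5), 0.0802% (Gm15441 around Txnip) and 0.0991% (Patl2 around B2m). Med12l had 5.13% of the counts of P2ry12. With 0.1% of the counts inside its span taken off Med12l, both microglia calls held (log2FC -0.79 and -0.89). With 1% taken off they did not pass, at -0.56 (edgeR adjusted p 0.0930) and -0.61 (edgeR adjusted p 0.0563), and with 2% taken off they were -0.11 and 0.00. The 3 shares were chosen after the data had been seen, the 0.1% after the results of the other 2. The share of Med12l counts that come from the P2ry genes was not measured.

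**Figure D5:**
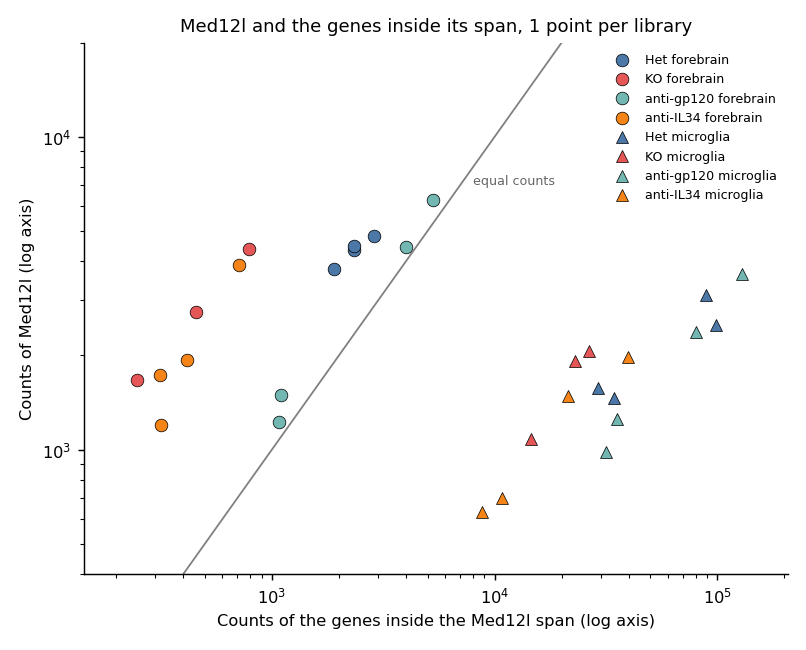
Counts of Med12l against the summed counts of the genes inside its span, on log axes, with 1 point per library; circles are forebrain, triangles are microglia, and the line marks equal counts. Forebrain libraries lie above the line and microglia libraries far below it.

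Genes with a pattern like that of Med12l over the 30 libraries were Cep68 (root mean square log2 difference 0.12), Pwwp2a, Chsy1, Slc25a37 and Wdfy2 (0.13 each). P2ry12 ranked 14215 of 14286 for likeness to Med12l.

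Adora3, an adenosine A3 receptor gene at chr3:105870858-105908926 on the plus strand, shares 99.88% of its span with a same-strand gene, Tmigd3, and only 45 bases are its own. Its 0 in every library therefore gives no level.

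The deletion and the antibody were compared through the difference of their effects, since they have separate animals and separate controls. In forebrain 0 of 9 members differed past the threshold by edgeR and 0 by DESeq2, with 0.0101% of all genes called, and 1 had an unadjusted p under 0.05. That was P2ry12, whose change was smaller with the deletion by 0.32 on the log2 scale (95% interval 0.08 to 0.55, unadjusted p 0.0116, edgeR adjusted p 1.00). P2ry13 (0.31) and Gpr34 (0.30) lay at a like size, P2ry14 gave -0.30, and Entpd1 (0.09), P2rx7 (0.06), P2rx4 (-0.02), P2ry6 (-0.07) and Med12l (-0.07) lay near 0. In microglia 0 of 9 members differed by either tool, where 0.0% of all genes were called by edgeR, so the count says nothing particular about the members. There 1 had an unadjusted p under 0.05, P2ry6, at -0.56 (95% interval -1.11 to -0.02), and P2ry12 gave 0.00 (95% interval -0.78 to 0.78). Entpd1 gave -0.48, Gpr34 -0.36, P2rx4 -0.26, P2rx7 -0.21, P2ry13 -0.08, P2ry14 0.02 and Med12l 0.12.

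The wider nucleotide and adenosine pathway was read from 39 further genes: other P2X, P2Y and adenosine receptors, enzymes that degrade nucleotides, adenosine transport and use, ATP release and partners of P2Y12 signalling. In KO forebrain 1 of 34 tested was lower and 0 higher, in KO microglia 3 of 34 and 0, in anti-IL34 forebrain 1 of 31 and 0, and in anti-IL34 microglia 1 of 34 and 0. These shares stand beside 0.615%, 5.22%, 0.525% and 0.603% of all genes called lower, and the 3 of 34 in KO microglia lie near that background. The gene lower each time was Pik3cg, which encodes a PI3-kinase catalytic subunit that acts downstream of G-protein-coupled receptors. It went from 4.26 ± 0.326 CPM in Het (SD, n = 4) to 2.03 ± 0.550 CPM in KO forebrain (SD, n = 3), a log2FC of -1.02 (SE 0.167, edgeR adjusted p 0.0119). Its other log2 fold changes were -1.28 in KO microglia, -1.21 in anti-IL34 forebrain and -0.96 in anti-IL34 microglia (edgeR adjusted p 0.0216, 0.00565 and 0.0374). In KO microglia the nucleoside transporters Slc29a3 and Slc29a1 also fell, from 277 ± 55.0 to 117 ± 10.9 CPM and from 49.5 ± 8.55 to 25.4 ± 2.46 CPM (SD, n = 4 and 3; log2FC -1.24 and -0.95, edgeR adjusted p 0.0221 and 0.0287). The Pik3cg call in KO forebrain was lost without Het 1 or KO 3 (highest edgeR adjusted p 0.0968, log2FC between -1.22 and -0.87). The microglia calls of these 3 genes held in 2 of 7 refits for the deletion, and that of Pik3cg in 2 of 8 for the antibody. The median log2 fold change over the genes tested was -0.08 in KO forebrain, -0.04 in KO microglia, -0.03 in anti-IL34 forebrain and 0.22 in anti-IL34 microglia, beside 0.00, 0.02, 0.00 and 0.06 over all genes. Of Gpr171, Igsf10 and Med12, 3 genes near the locus or related to Med12l, 2 were tested in forebrain and 3 in microglia, and 0 passed in any of the 4 comparisons by edgeR.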

How the data were processed

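RNA of 30 libraries from 15 mice was measured, a forebrain and a microglia library each; per the labels' protocols, TRIzol with chloroform was used for extraction and the SMART-Seq v4 kit for the libraries. The authors deposited whole-number read counts per gene, made with STAR 2.7.5c and featureCounts 1.6.3 on GRCm38, per the submitters' processing notes. Whether strand was used is not given in the sources used here. The deposited Length, a unit outside the usual ones, equals the whole gene span of GENCODE M21 for 51183 of 51498 matched identifiers. The deposited TPM table and 6 count and 6 TPM columns that matched no labelled sample were not used.

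The tool was edgeR 4.0.16 (R 4.3.3) with its quasi-likelihood F test, TMM scaling, filterByExpr on the group, sex as a covariate, Benjamini-Hochberg adjustment over all genes tested, threshold 0.05. Only libraries of 1 tissue and 1 experiment entered an arm comparison. For the tissue contrast the 8 control animals were fitted with terms for experiment and sex; interactions had terms for sex in each tissue and took both tissues of an experiment; deletion minus antibody used the 15 libraries of a tissue. The SE was obtained as the fitted log2 change over the root of F. CPM was scaled within each fit, and log2 CPM used a prior count of 2. Of the planned microglial markers, Itgam had 7 counts in 30 libraries, with 99.92% of its span shared on its own strand, and was left out. Some other planned markers and a gene near the locus are not reported here. The script was tested on simulated data. Alternatives were DESeq2 1.42.0, RLE size factors, no low-count filter, no sex term, other sample sets, each animal left out, the animal as a replicate block, and small shares taken off Med12l.

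The rule for named genes took all members in each comparison, of which Adora3 had no level, and of the pathway lists every gene past the threshold, up to the 4 with the smallest p in each direction. The members and lists were chosen with earlier results of these data known. Libraries of 1 animal share its number in the labels, so pairing was checked: their deviations from the group means correlated with a median of 0.176 (0.0771 to 0.283, above 0.1 in 12 of 15 animals), against -0.0758 for different animals. Since paired libraries come from the same animal, the block applies to the tissue contrasts. No 2 replicates looked like a library deposited again (42 pairs, chi-square over its degrees of freedom at least 5.48). The number of animals limits the precision.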

Additional observations from a re-analysis of the deposited data

Results flagged for a closer look

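Within the arms of 4 animals, 54 groups of values were examined for a library that stands apart, where chance gives about 1 in 20, and 2 were found, both for Entpd1. In anti-IL34 forebrain animal 2 had 17.6 CPM while the other 3 had 20.7 to 21.0 CPM, a gap of 0.921 of the whole range. In anti-gp120 microglia animal 15 had 637 CPM while the other 3 had 911 to 966 CPM, a gap of 0.832 of the range.

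The change of Med12l differed between microglia and forebrain by an interaction test, by -0.78 on the log2 scale with the deletion and by -0.98 with the antibody. Forebrain and microglia were taken from the same mice, and neither value passed once each mouse was entered as a replicate block. Without the block they passed in 2 of 7 and 3 of 8 fits that left out 1 animal, with log2 values of -0.87 to -0.66 and -1.08 to -0.90. Both values rest on microglia counts of Med12l that may include a small share of reads from the P2ry genes of the other strand, which was not measured.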

How the results depend on the processing

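With 1 animal left out, the number of members past the threshold ran from 3 to 3 in KO forebrain, 0 to 8 in KO microglia, 3 to 3 in anti-IL34 forebrain and 0 to 8 in anti-IL34 microglia. For the tissue differences it ran from 0 to 4 (deletion) and 0 to 3 (antibody). The fits with the animal as a replicate block gave 8 members for the tissue contrast, as without it, and 0 for each tissue difference, so the Med12l calls were lost there. Without a low-count filter 5 members passed in anti-IL34 forebrain, Entpd1 and P2ry6 being added, and 2 in the tissue difference of the deletion, Entpd1 being added, as by DESeq2 (2). With 1% or 2% of the inner genes' counts taken off Med12l, 2 members passed in anti-IL34 microglia. The causes were not tested. The planned refit with Med12l less all counts of the inner genes was not run, since that remainder was below 0 in 15 of 15 microglia libraries.

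The number of genes past the threshold was 120 in KO forebrain (381 without a filter) and 976 in KO microglia (3807 by DESeq2, 1993 without a filter, 2189 without sex, 2734 over all 15 libraries). It was 123 in anti-IL34 forebrain (198, 349 and, over all 15 libraries, 204) and 110 in anti-IL34 microglia (2020, 819, 983 and 988). With 1 animal left out it ran from 55 to 117, 0 to 5756, 25 to 126 and 0 to 6905. For the tissue difference of the deletion it was 599 (3595 by DESeq2, 1569 without a filter, 2400 without sex, 0 under the block), and of the antibody 17 (1092, 1352, 222 and 0, and 48 with RLE size factors). Deletion less antibody gave 2 in forebrain (27, 114 and 4) and 0 in microglia (27 by DESeq2, 1 without a filter). With 1 animal left out these ran from 0 to 5688, 0 to 5565, 2 to 33 and 0 to 5.

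Signs that reversed belonged to values that did not pass. Med12l in KO forebrain gave 0.00064 and 0.0061 with 1% and 2% taken off, and in the tissue contrast 0.0089 (DESeq2), 0.0073 (RLE) and 0.029 (no filter). P2rx4 in KO forebrain gave 0.0019 over all 15 libraries, and the P2ry12 deletion difference between tissues 0.016 under the block. With 1 animal left out, log2 values crossed 0 as follows. In KO forebrain P2rx4 ran from -0.12 to 0.039 and Med12l from -0.054 to 0.033. P2ry14 ran from -0.073 to 0.38 in KO microglia and from -0.085 to 0.31 in anti-IL34 forebrain, where P2rx4 ran from -0.077 to 0.074. Med12l ran from -0.075 to 0.038 in the tissue contrast. Microglia less forebrain with the deletion, P2ry12 ran from -0.20 to 0.23 and P2ry13 from -0.20 to 0.095. With the antibody it was -0.056 to 0.44 for P2ry12, -0.061 to 0.47 for P2ry13, -0.14 to 0.35 for P2ry14, -0.017 to 0.46 for P2ry6 and -0.057 to 0.67 for Gpr34. Deletion less antibody in forebrain, P2ry6 ran from -0.19 to 0.042 and P2rx4 from -0.088 to 0.077. In microglia it was -0.12 to 0.31 for P2ry12, -0.19 to 0.15 for P2ry13, -0.17 to 0.12 for P2ry14 and -0.38 to 0.12 for P2rx7. Relative to the microglial markers, Gpr34 in KO microglia ran from -0.18 to 0.045, and in anti-IL34 microglia Entpd1 ran from -0.22 to 0.074 and Med12l from -0.089 to 0.10.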
